A study of Mus musculus with 4 samples.

Results

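mmu-miR-221-3p and mmu-miR-222-3p are the mature guide strands of 2 neighbouring miRNA genes on the mouse X chromosome, and both were measured in extracellular vesicles (EVs) that cultured hepatocytes had released. They were taken from the arrays by name and make up 2 of the 1881 mouse miRNAs that the arrays carry. Both lay above background in all 4 groups. Their signals were higher in EVs from the high-fat diet (HFD) than in EVs from chow in wild-type and in Ggpps-deleted hepatocytes alike. Under the scaling used for the ratios below, none of the pair's genotype ratios was beyond 2 spot SDs. This depended on the scaling. With the 75th percentile taken over all miRNAs, the chow genotype ratios were 0.20 and 0.29 on the log2 scale, both beyond 2 spot SDs. For the unscaled signals they were 0.32 and 0.41.

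Each group is 1 Agilent array that was hybridised with a single pool of EV RNA from 4 animals, and all 4 arrays were on the same slide. The mice were B6 males of 20 weeks, and the diet had lasted 12 weeks. Chow-EV came from wild-type (WT) mice on chow and HFD-EV from WT mice on the HFD. A liver knockout (LKO) of Ggpps gave the other pair of groups, Chow-LKO EV on chow and HFD-LKO EV on the HFD. Ggpps encodes geranylgeranyl diphosphate synthase, an enzyme of the mevalonate branch that makes the lipid anchor of Rab GTPases. Hepatocytes of every group were cultured for 48 h, and the EVs were spun from their medium. The deletion model limits the groups. Ggpps-floxed alleles were recombined by Mx1-Cre, an interferon-responsive driver that polyinosinic-polycytidylic acid switches on. The paper describes the recombination as restricted to liver, while Mx1-Cre is known to act in blood cells as well. Whether the WT mice also received polyinosinic-polycytidylic acid is not given in the sources used here. The arrays measure miRNAs only, so the loss of Ggpps mRNA could not be checked on them.

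A miRNA pairs with messenger RNAs chiefly through its seed, bases 2 to 8, and lowers their translation and stability. miR-221 and miR-222 are made from a shared primary transcript, have the same seed and are best known for repressing the cell cycle inhibitors Cdkn1b (p27Kip1) and Cdkn1c (p57Kip2) and the receptor Kit. In liver they are known for high levels in hepatocellular carcinoma, and outside hepatocytes they are abundant in endothelial cells.

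The mature strands are shown first because the shared seed, in capitals, is what joins the pair, together with miR-1928, the only other mature miRNA of the reference table with this seed (3 of 1679, 0.179%). The sequences and positions are those of RefSeq on GRCm38.p6.
miR-221-3p: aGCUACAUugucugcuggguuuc
miR-222-3p: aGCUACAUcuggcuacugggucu
miR-1928: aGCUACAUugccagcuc
miR-221-3p and miR-222-3p, each of 23 bases, were identical over their first 8 bases and had the same base at 11 positions. miR-1928, a strand of 17 bases from a gene on chromosome 1, shared its first 10 bases with miR-221-3p and its first 8 with miR-222-3p.

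Both strands come from the 3′ arm of their hairpins, shown next with that arm in capitals because the arrays read each arm by its own probes. Mir221 lies at chrX:19146294-19146388 and Mir222 at chrX:19146893-19146971, both on the minus strand and with 504 bases between them.
Mir221 hairpin: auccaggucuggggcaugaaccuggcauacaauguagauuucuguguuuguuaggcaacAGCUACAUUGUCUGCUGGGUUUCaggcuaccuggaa
Mir222 hairpin: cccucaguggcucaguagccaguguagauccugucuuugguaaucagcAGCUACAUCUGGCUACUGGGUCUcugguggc
The mature strand occupies bases 60 to 82 of the Mir221 hairpin and bases 49 to 71 of the Mir222 hairpin.

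Because the seeds are identical, it matters which bases the probes read. The deposited tables give 1 hybridising stretch for each miRNA, although each is read by 2 probes.
miR-221-3p probe: gaaacccagcagacaatgta
miR-222-3p probe: acccagtagccaga
The stretch for miR-221-3p is complementary to bases 4 to 23 of that strand, and the stretch for miR-222-3p to bases 8 to 21 of its own. No other mature miRNA of the table held either target in full (0 for each). The longest run that the miR-221-3p target had in common with miR-222-3p was 6 bases, as was the longest run of the miR-222-3p target in miR-221-3p. With miR-1928 the longest runs were 7 bases for the miR-221-3p target and 5 for the miR-222-3p target.

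As the first measurement, the level of each strand was taken as the sum of its probe means in arbitrary fluorescence units, with the SD between replicate spots as its error. This error covers the spots of an array and not the spread between animals. miR-221-3p gave 296.3 ± 12.8 on chow and 423.1 ± 15.5 on the HFD in wild-type EVs, and 369.0 ± 13.7 on chow and 416.7 ± 16.4 on the HFD in LKO EVs. miR-222-3p gave 97.4 ± 5.57 on chow and 175.8 ± 10.3 on the HFD in wild-type EVs, and 128.9 ± 5.33 on chow and 164.5 ± 6.63 on the HFD in LKO EVs. For both strands Chow-EV was the lowest of the 4 signals as deposited and HFD-EV the highest. The signals of the pair cannot be set against each other, because probes differ in how brightly they bind.

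The spots behind these sums were tight. Each probe had 15 spots on an array, of which 11 to 15 were used after 11 outliers of 240 spots had been left out, and every spot used was well above background. The coefficient of variation between spots ran from 2.77% to 10.9%. Single spots of miR-221-3p lay between 97.5 and 286.6 and those of miR-222-3p between 34.03 and 111.3. The negative-control spots of the same arrays had SDs of only 2.18 to 2.71.

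**Figure D1:**
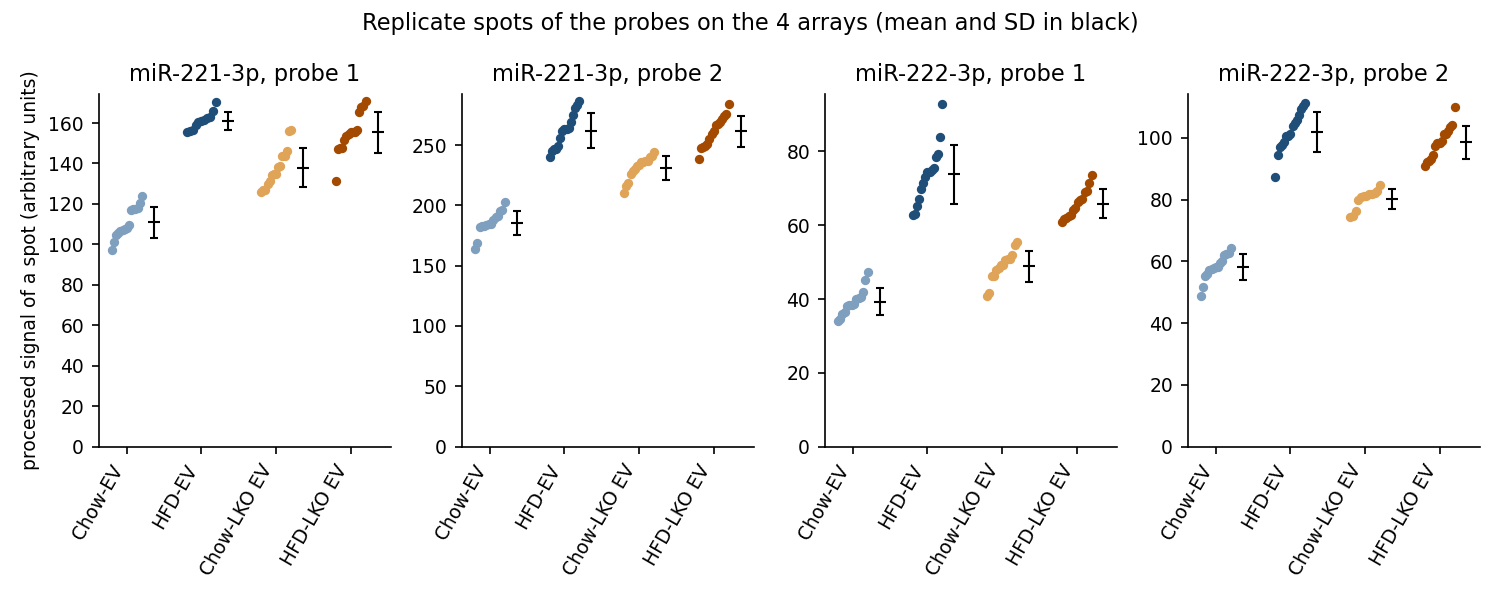
Processed signal of every spot used (vertical axis, arbitrary units as deposited) for the 2 probes of miR-221-3p and the 2 probes of miR-222-3p on the arrays of the 4 groups (horizontal axis), with the mean and SD of the spots in black. On each of the 4 probes all HFD-EV spots sit above all Chow-EV spots, and the Chow-LKO EV spots lie between the means of Chow-EV and HFD-EV.

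The deposited signals are not normalised between arrays, so before groups were compared the signals were put on a scale on which the 75th percentile of an array is 1. The percentile was taken over the 443 miRNAs that every array measured above background. It was 507.9 for wild-type EVs on chow and 561.0 on the HFD, and 614.1 for LKO EVs on chow and 527.7 on the HFD. The scaled level of miR-221-3p was then 0.583 in Chow-EV, 0.601 in Chow-LKO EV, 0.754 in HFD-EV and 0.790 in HFD-LKO EV. That of miR-222-3p was 0.192 in Chow-EV, 0.210 in Chow-LKO EV, 0.312 in HFD-LKO EV and 0.313 in HFD-EV. For both strands the chow levels were the lower and the HFD levels the higher. Neighbours in this order were told apart by more than 2 spot SDs only at the step from chow to HFD, which was 0.33 ± 0.08 on the log2 scale for miR-221-3p (Chow-LKO EV to HFD-EV) and 0.57 ± 0.08 for miR-222-3p (Chow-LKO EV to HFD-LKO EV). The steps within a diet were 0.04 ± 0.08 and 0.07 ± 0.08 for miR-221-3p, and 0.13 ± 0.10 and 0.0076 ± 0.10 for miR-222-3p. Both HFD levels lay above both chow levels under all 13 ways of processing that were tried, for both strands. For miR-221-3p the size of the step from chow to HFD depended on the scaling. With the 75th percentile over all miRNAs, Chow-LKO EV and HFD-EV lay 0.20 and 0.27 above Chow-EV on the log2 scale. The step between them was then within 2 spot SDs and smaller than the genotype step on chow. The same held with scaling to the median (0.19 and 0.27) and with quantile normalisation (0.15 and 0.29).

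The question of the diet comparison is whether hepatocytes of HFD-fed mice release EVs with another miRNA content. In the wild type, miR-222-3p in HFD-EV was at 1.63-fold its level in Chow-EV, a log2 ratio of 0.71 ± 0.12, and miR-221-3p was at 1.29-fold, a log2 ratio of 0.37 ± 0.08. Both ratios were beyond 2 spot SDs. The spots of all 4 probes did not overlap between the arrays, with or without scaling, and neither did those of 43.3% of the 916 probes above background on both arrays (49.2% as deposited). With 1 array a group there is no replicate check and no test of the diet. For the array comparison the paper states the same load of EVs by mass for every group. More miRNA per vesicle, other vesicles and another number of vesicles or source cells cannot be told apart in pooled EV RNA.

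The ratios were then read against all miRNAs, since the whole distribution was shifted. Over the 477 miRNAs measured on both arrays the median log2 ratio was 0.10, and 59.96% were above 0. miR-222-3p was 51st from the highest and miR-221-3p 126th, so 10.5% and 26.2% of miRNAs had a higher ratio. Neither strand reached 2-fold, as 3.98% of the miRNAs measured did in either direction. A 1.5-fold higher signal was reached by miR-222-3p and by 14.9% of all miRNAs, and not by miR-221-3p. The pair was therefore within the upper part of the distribution and not among its extremes.

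In EVs from Ggpps-deleted hepatocytes the same diet comparison gave like values. miR-222-3p was 1.48-fold higher in HFD-LKO EV than in Chow-LKO EV, a log2 ratio of 0.57 ± 0.08, and miR-221-3p was 1.31-fold higher, a log2 ratio of 0.39 ± 0.08. Spots did not overlap between these arrays on 3 of the 4 probes after scaling, against 42.1% of all probes. The exception was probe 1 of miR-221-3p, whose lowest HFD-LKO EV spot was 0.249 on the scaled axis against 0.255 for the highest Chow-LKO EV spot. On the signals as deposited, 2 of the 4 probes did not overlap, both of them of miR-222-3p, against 42.8% of all probes. The median of the 466 miRNAs was 0.14, and the places from the highest were 76 for miR-222-3p and 127 for miR-221-3p. Of these miRNAs 4.51% were at least 2-fold apart and 15.5% at least 1.5-fold higher, and neither strand reached either fold.

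**Figure D2:**
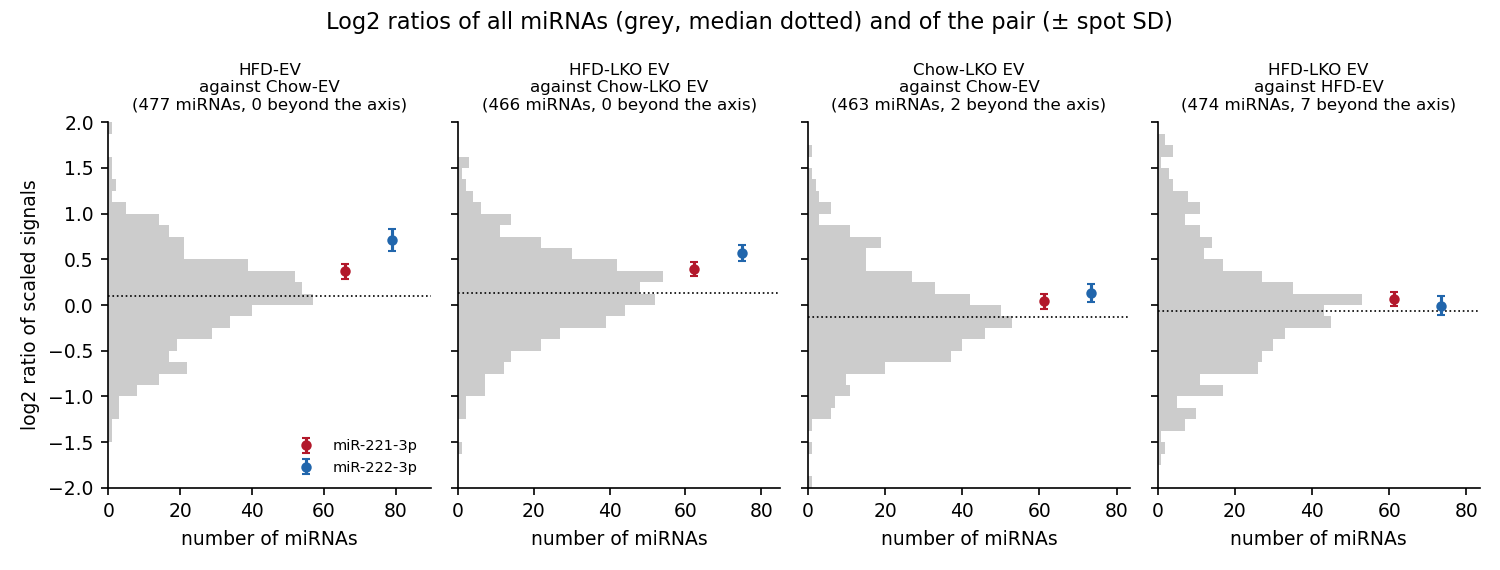
Log2 ratios of scaled signals (vertical axis) of all miRNAs above background on both arrays, as counts per bin (grey, horizontal axis, median dotted), with miR-221-3p in red and miR-222-3p in blue beside them and the SD between spots as bars. In both diet comparisons the pair lies above the median (0.10 and 0.14) with miR-222-3p the higher at 0.71 and 0.57, and in both genotype comparisons it lies between -0.01 and 0.13.

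The diet ratio in LKO EV minus that in wild-type EV was 0.02 ± 0.11 for miR-221-3p and -0.14 ± 0.14 for miR-222-3p. Both differences were within 1 spot SD of 0. Over the 443 miRNAs measured in every group the median size of this difference was 0.20, and 6.32% of miRNAs had a smaller one than miR-221-3p and 35.4% a smaller one than miR-222-3p. These values depend on the scaling, since without any scaling the differences were -0.34 and -0.50. The 2 diet ratios share no array.

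**Figure D3:**
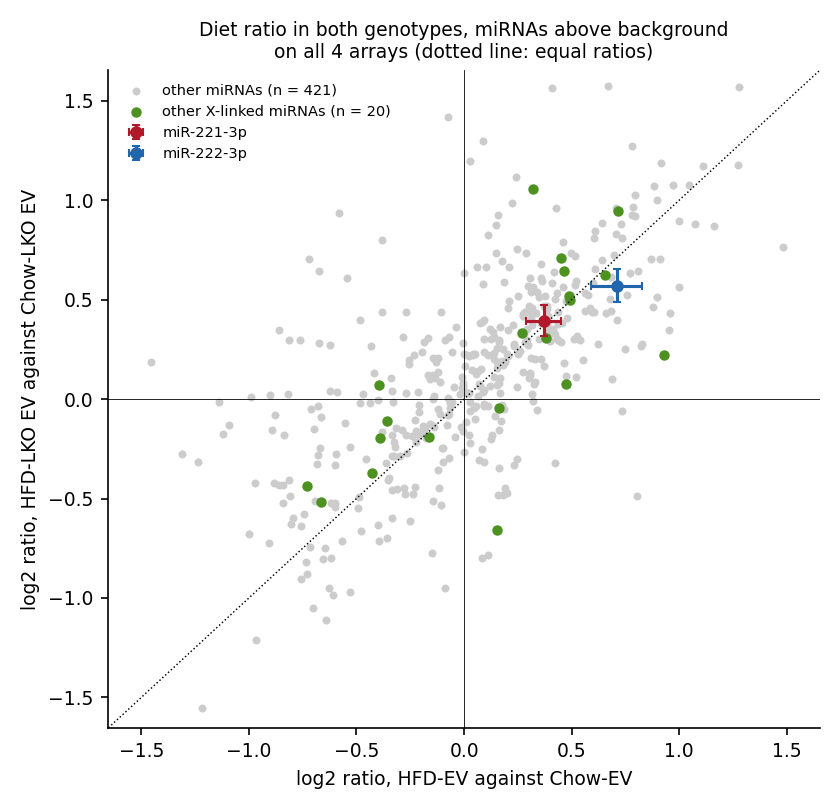
Log2 ratio of HFD-EV against Chow-EV (horizontal axis) and of HFD-LKO EV against Chow-LKO EV (vertical axis) for the 443 miRNAs that every array measured, with the other X-linked miRNAs in green and the pair with spot SDs as bars. miR-221-3p (0.37 and 0.39) lies on the dotted line of equal ratios, and miR-222-3p (0.71 and 0.57) lies just under it.

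The genotype comparison asks whether hepatocytes without Ggpps load other miRNAs into their EVs. On chow, Chow-LKO EV differed from Chow-EV by a log2 ratio of 0.04 ± 0.08 for miR-221-3p and 0.13 ± 0.10 for miR-222-3p, and the scaled spots overlapped on all 4 probes, while they did not on 46.9% of all probes. On the HFD, HFD-LKO EV differed from HFD-EV by 0.07 ± 0.08 for miR-221-3p and -0.0076 ± 0.10 for miR-222-3p, and the spots again overlapped on all 4, scaled or as deposited, while they did not on 52% of all probes scaled and 53.7% as deposited. None of the 4 values was beyond 2 spot SDs. With no replicate arrays this does not show that the genotypes are alike.

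Scaling weighs most on these small ratios. With the 75th percentile taken over all miRNAs, the chow genotype ratios were 0.20 for miR-221-3p and 0.29 for miR-222-3p. With scaling to the median they were 0.19 and 0.28. All of these were beyond 2 spot SDs, as was the HFD genotype ratio of miR-221-3p under these settings, at 0.17 and 0.16. That of miR-222-3p on the HFD was not, at 0.09 under both. In the signals as deposited, without scaling, the chow genotype ratios were 0.32 for miR-221-3p and 0.41 for miR-222-3p, and 3 of the 4 probes did not overlap between Chow-LKO EV and Chow-EV, against 44.6% of all probes. The Chow-LKO EV array had the highest 75th percentile of the 4, and without scaling the median ratio of all miRNAs moved by 0.27, from -0.13 to 0.14. Relative to the median of all miRNAs, the scaled chow ratios were 0.18 for miR-221-3p and 0.27 for miR-222-3p, and the HFD ratios 0.13 and 0.06. On chow 6.7% of the 463 miRNAs measured were at least 2-fold apart and on the HFD 13.9% of 474, the highest share of the 4 comparisons, yet the pair stayed in the middle of the distribution. On chow miR-222-3p was 136th from the highest and miR-221-3p 160th, and on the HFD they were 213th and 181st. Each genotype comparison shares an array with each diet comparison, so these ratios are not independent of each other.

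As the pair shares a primary transcript and a seed, the strands were also compared with each other. The log2 ratio of miR-222-3p minus that of miR-221-3p does not depend on the factor by which an array is scaled. It was 0.34 ± 0.14 for HFD-EV against Chow-EV and 0.18 ± 0.11 for HFD-LKO EV against Chow-LKO EV. In the genotype comparisons it was 0.09 ± 0.13 on chow and -0.07 ± 0.13 on the HFD. Only the first was beyond 2 spot SDs. Its size was not the same under all processing. With normexp background correction and an offset of 50 the wild-type diet ratios were 0.26 for miR-221-3p and 0.33 for miR-222-3p. In the authors' normalised signals they were 0.24 and 0.39. Under both, the difference between the strands was within 2 spot SDs. The same held narrowly with quantile normalisation, where the ratios were 0.29 and 0.58.

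The single probes gave the same order. For HFD-EV against Chow-EV, probes 1 and 2 of miR-221-3p were at 0.40 ± 0.11 and 0.36 ± 0.11, and probes 1 and 2 of miR-222-3p at 0.77 ± 0.21 and 0.67 ± 0.14. For HFD-LKO EV against Chow-LKO EV they were at 0.39 ± 0.14 and 0.40 ± 0.09 for miR-221-3p and at 0.65 ± 0.15 and 0.52 ± 0.10 for miR-222-3p. In both genotypes each probe of miR-222-3p was above each probe of miR-221-3p. For the chow genotype comparison the 2 probes of miR-222-3p stood further apart, at 0.04 ± 0.18 and 0.19 ± 0.12, and those of miR-221-3p were both at 0.04.

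**Figure D4:**
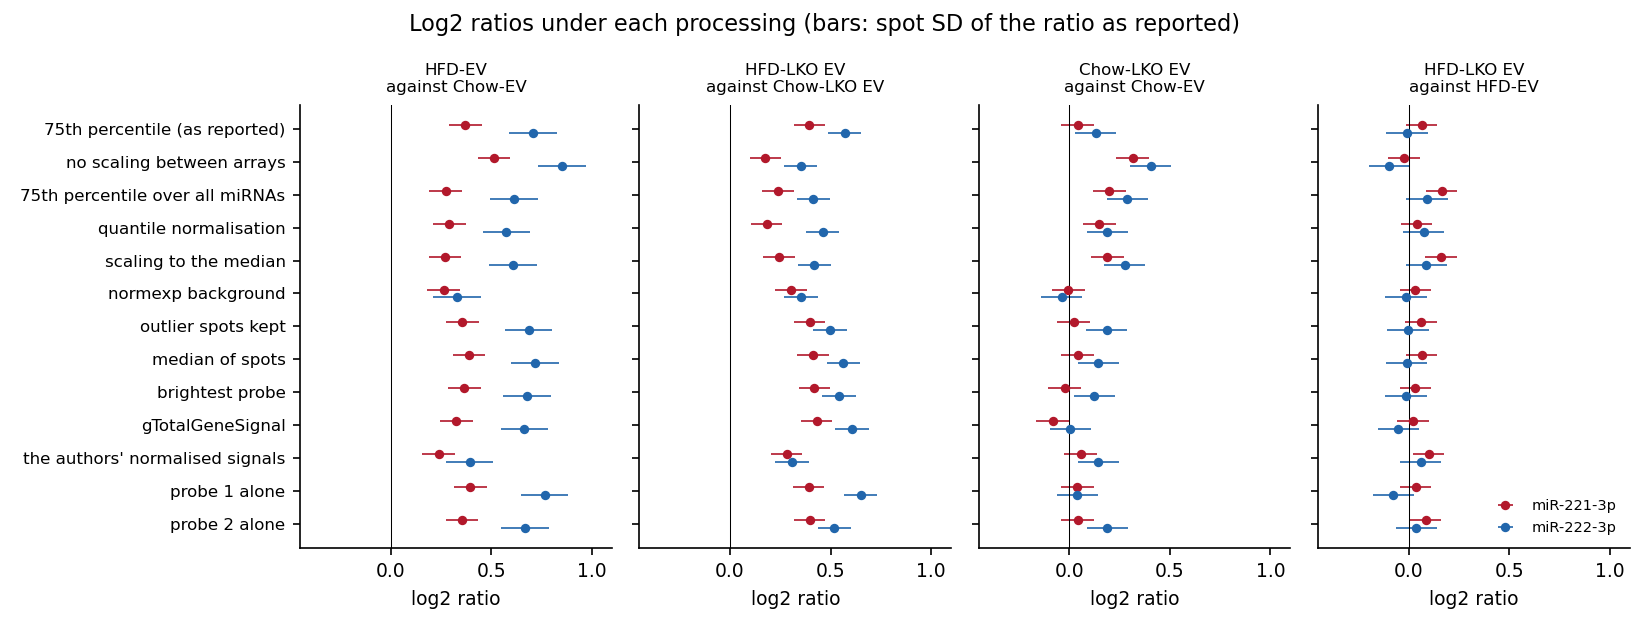
Log2 ratios (horizontal axis) of miR-221-3p in red and miR-222-3p in blue under 13 ways of processing (vertical axis), 1 panel for each comparison, with the spot SD of the first row as bars. All diet ratios lie above 0, between 0.18 and 0.85, and the genotype ratios lie between -0.10 and 0.41. On chow the genotype ratio is above 0 in 10 of the 13 ways for miR-221-3p and in 12 for miR-222-3p. On the HFD it is above 0 in 12 for miR-221-3p and in 5 for miR-222-3p.

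The opposite arms of the hairpins were not measurable. miR-221-5p, with its seed in capitals, is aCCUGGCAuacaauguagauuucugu, at chrX:19146344-19146369 on the minus strand, and is the strand that is usually degraded. Its spots lay between -6.20 and 10.3 units over all arrays, and no spot was well above background (0% on each probe and array). The spots of miR-222-5p, read by 3 probes, lay between -4.54 and 7.63, also with 0% above background. miR-1928, which has the same seed as the pair, lay between -4.74 and 7.12 and was above background on none of the 4 arrays. The lowest signal above background on an array was 13.8 to 19.9. No ratio is given for these 3 miRNAs.

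The pattern of the pair over the 4 groups was then set beside that of every other miRNA above background on all arrays. Likeness was the root mean square difference of the scaled log2 signals over the 4 arrays, each miRNA centred on its own mean, and this is a description of 4 points. No spot error was carried to this distance, so the order among close miRNAs was not tested. Nearest to miR-221-3p was miR-1895 at 0.019, with wild-type signals of 1435 on chow and 1996 on the HFD and LKO signals of 1753 and 2032. Then came miR-1839-5p at 0.028, miR-452-5p at 0.045, miR-7222-3p at 0.046 and miR-106b-5p at 0.046. Of these 5 only miR-452-5p comes from the X chromosome. miR-222-3p was 60th of 442 in this order, at 0.13, against a median of 0.31 over all miRNAs.

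Nearest to miR-222-3p was miR-24-3p at 0.054, a miRNA known to repress cell cycle genes, with wild-type signals of 476.3 on chow and 777.4 on the HFD and LKO signals of 604.1 and 749.9. It was followed by miR-423-5p at 0.090, by miR-27a-3p at 0.097, which is known to repress the adipogenic factor Pparg, by miR-7224-3p at 0.10 and by miR-106b-5p at 0.11. The signals of miR-7224-3p were near the background, at 19.6 on chow and 32.7 on the HFD in wild-type EVs and 23.4 and 27.2 in LKO EVs. miR-221-3p was 14th of 442, and the median over all was 0.38. miR-106b-5p, from the miR-106b cluster on chromosome 5 and known to repress Cdkn1a, was thus among the 5 nearest to both strands.

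**Figure D5:**
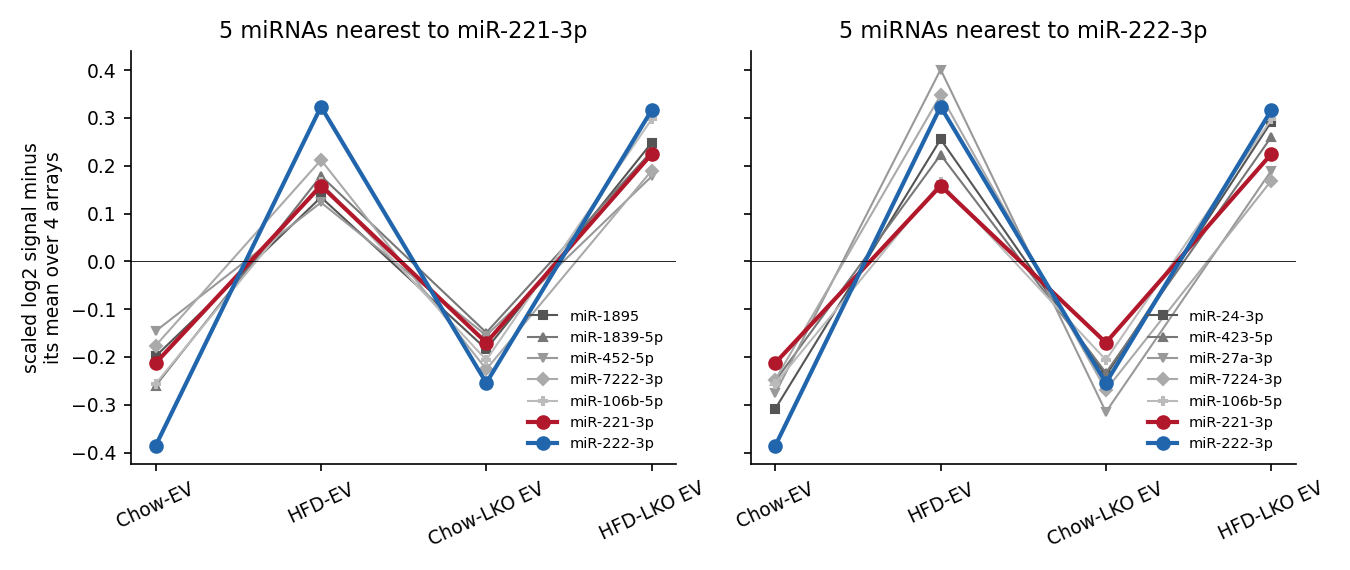
Scaled log2 signal of each miRNA minus its own mean over the 4 arrays (vertical axis) in the 4 groups (horizontal axis), for miR-221-3p, miR-222-3p and the 5 miRNAs nearest to each in grey. All lines are low on chow and high on the HFD in both genotypes, and miR-222-3p spans from -0.39 to 0.32 against -0.21 to 0.22 for miR-221-3p.

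The other miRNAs of the X chromosome, taken over its whole length, did not lie to 1 side as a block. Of 141 other X-linked miRNAs on the array, miR-221-5p among them, 20 were above background on all 4 arrays and 110 on none. The median of those measured was 0.27 in HFD-EV against Chow-EV (23 miRNAs) and 0.07 in HFD-LKO EV against Chow-LKO EV (23 miRNAs), and it was -0.18 and -0.06 in the genotype comparisons on chow and on the HFD. Without scaling these 4 medians were 0.41, -0.15, 0.09 and -0.14, so that the LKO diet median and the chow genotype median changed sign. In HFD-EV against Chow-EV they ran from miR-2137 at -0.73 and miR-652-5p at -0.67 to miR-20b-5p at 0.71 and miR-450a-2-3p at 0.93, and miR-222-3p was 3rd and miR-221-3p 11th of 24. In HFD-LKO EV against Chow-LKO EV they ran from miR-878-3p at -0.91 and miR-3472 at -0.66 to miR-20b-5p at 0.94 and miR-5132-5p at 1.06, and the pair was 6th and 8th of 24.

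The genotype comparisons spread the X-linked miRNAs more widely. On chow, miR-450a-2-3p was at -2.02 and miR-5132-3p at -1.90, while miR-223-3p was at 0.75 and miR-2137 at 1.25. On the HFD the same 4 stood at the ends, at -2.72, -2.30, 0.73 and 1.54. The pair lay between these ends, with miR-221-3p 9th in both and miR-222-3p 8th of 22 on chow and 11th of 23 on the HFD.

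The cell origin of the EV RNA was checked with miRNAs that mark cell types, because endothelial and other non-parenchymal cells also make the pair. The hepatocyte markers miR-122-5p, miR-192-5p, miR-194-5p and miR-148a-3p were above background on all arrays, and their summed scaled level was 185.3 on chow and 185.1 on the HFD in wild-type EVs, and 165.9 and 182.9 in LKO EVs. Most of this sum was miR-122-5p. In the genotype comparisons on chow and on the HFD miR-194-5p was at -0.68 and -0.64 in log2 ratio, and miR-148a-3p at -0.33 and -0.38. The other markers of this list did not follow them on both diets, with miR-192-5p at 0.05 and 0.05 and miR-122-5p at -0.16 and 0.0014. The endothelial pair miR-126a-3p and miR-126a-5p summed to 2.51, 2.79, 1.98 and 2.06 in the same order. In HFD-EV against Chow-EV miR-126a-3p was at 0.16 ± 0.05 and miR-126a-5p at -0.10 ± 0.25 in log2 ratio. In HFD-LKO EV against Chow-LKO EV they were at 0.08 ± 0.05 and -0.32 ± 0.17. In the genotype comparisons on chow and on the HFD miR-126a-3p was at -0.36 and -0.44 and miR-126a-5p at -0.03 and -0.25. Of 5 mesenchymal markers only miR-199a-3p was measured, and miR-199a-5p, miR-214-3p, miR-143-3p and miR-145a-5p were above background on no array. The summed level of that list was 0.057, 0.055, 0.093 and 0.076. None of the 5 epithelial markers of the miR-200 family was above background.

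Blood-cell markers were measured beside the pair. In each diet comparison 3 of the 4 measured had a log2 ratio above 0, against 59.96% of all miRNAs in the wild type and 62.0% in LKO EVs. Of 5 leukocyte markers miR-142a-3p, miR-155-5p and miR-223-3p were measured, while miR-142a-5p and miR-150-5p were above background on no array, and the summed scaled level was 0.727 on chow and 0.926 on the HFD in wild-type EVs, and 0.981 and 1.23 in LKO EVs. miR-142a-3p was at 0.90 ± 0.17 in HFD-EV against Chow-EV and at 0.999 ± 0.24 in HFD-LKO EV against Chow-LKO EV. miR-155-5p was at 0.61 ± 0.12 and 0.84 ± 0.14, and miR-223-3p at -0.16 ± 0.09 and -0.19 ± 0.09. The erythroid miR-451a was at 0.50 ± 0.23 and 0.74 ± 0.15. Its list had a summed level of 0.056, 0.079, 0.100 and 0.167, while miR-144-3p was above background on no array. The Chow-EV signal of miR-451a was near the background, at 28.5 units against a lowest signal above background of 15.5. With normexp its wild-type diet ratio was 0.04. In the genotype comparisons on chow and on the HFD miR-451a was at 0.84 ± 0.19 and 1.08 ± 0.19, and miR-223-3p at 0.75 ± 0.09 and 0.73 ± 0.09. In the same comparisons miR-155-5p was at 0.30 ± 0.16 and 0.54 ± 0.09, and miR-142a-3p at -0.69 ± 0.25 and -0.59 ± 0.16. The part of endothelial and blood cells in the diet ratios of the pair was not tested.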

How the data were processed

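Spot intensity was deposited as Agilent Feature Extraction 10.7.1.1 had written it for 1-colour arrays, background-subtracted and, per the file headers, without normalisation from array to array. The authors also deposited normalised log2 signals, whose medians lay between 4.865 and 4.870 in the 4 groups. The methods name U6 scaling, and how these values were made from the spot files is not given in the sources used here. They served as an alternative. The tables also hold the authors' fold changes, which were not used, and 1 column of a combined table was left out because its values are not the signal of the sample it is headed with.

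Control and outlier spots were left out, spots were averaged per probe and probes summed per miRNA. A miRNA was above background where over 0.5 of the spots of at least 1 probe were. The 75th percentile of an array, over the 443 miRNAs above background on every array, was the scale of its signals, and a ratio needed both arrays above background. Each group is 1 array, so no test was made. The error is the SD between spots carried to the ratio, which leaves out the spread between animals, and differences beyond 2 spot SDs are named as such. A ratio counts as moved when another setting changes it by more than 1 spot SD. The number of arrays limits the precision.

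The pair and the lists were chosen with earlier results of these data known. Named miRNAs are the pair, their opposite arms, miRNAs with the same seed, the 5 nearest patterns to each, examples of the lists, and the 2 highest and 2 lowest X-linked miRNAs of each comparison. Of 1881 names, 1608 matched RefSeq. A list of miRNAs grouped by their targets is not reported here. The alternatives covered scaling, background, outlier spots, the summary of spots and probes, the detection call and the fold. The summary was run on simulated spots with set 2-fold changes and the detection calls of Chow-EV on every array. This does not test differences as small as the genotype ratios of the pair. Python 3.11.15, numpy 2.4.6, pandas 2.3.3, R 4.3.3 and limma 3.58.1 (normexp) were used.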

Additional observations from a re-analysis of the deposited data

Results flagged for a closer look

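The genotype ratio of miR-222-3p had opposite signs on the diets, with a log2 ratio of 0.13 ± 0.10 for Chow-LKO EV against Chow-EV and -0.0076 ± 0.10 for HFD-LKO EV against HFD-EV. The difference was not tested, as each group is 1 array, and neither value was beyond 2 spot SDs of 0. The HFD ratio was above 0 under 5 of the 12 alternatives, at most 0.091 with the 75th percentile over all miRNAs. The chow ratio changed sign under 1 of them.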

How the results depend on the processing

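Of 96 log2 ratios of the pair under an alternative, 62 moved by less than 1 spot SD and 34 by more, and all diet ratios stayed above 0. Without scaling, miR-221-3p was at 0.51 for HFD-EV against Chow-EV, 0.32 for Chow-LKO EV against Chow-EV, -0.022 for HFD-LKO EV against HFD-EV and 0.18 for HFD-LKO EV against Chow-LKO EV. miR-222-3p was at 0.85, 0.41 and 0.35 in the first, second and last of these, and the diet ratio in LKO EV minus that in wild-type EV was -0.34 and -0.50. With the 75th percentile over all miRNAs, miR-221-3p was at 0.27, 0.20, 0.17 and 0.24 in the same 4 comparisons and miR-222-3p at 0.29 on chow between genotypes and 0.42 for the LKO diet ratio. With scaling to the median, these were 0.27, 0.19, 0.16 and 0.24 for miR-221-3p and 0.28 and 0.42 for miR-222-3p. With quantile normalisation, miR-221-3p was at 0.15 on chow between genotypes and 0.18 for the LKO diet ratio, with a diet difference of -0.11, and miR-222-3p at 0.58 and 0.46 for the wild-type and LKO diet ratios. With normexp and an offset of 50, the wild-type and LKO diet ratios were 0.26 and 0.30 for miR-221-3p and 0.33 and 0.35 for miR-222-3p, whose chow genotype ratio was -0.038 and diet difference 0.025. With gTotalGeneSignal the chow genotype ratios were -0.083 and 0.0059. In the authors' normalised signals the wild-type and LKO diet ratios were 0.24 and 0.28 for miR-221-3p and 0.39 and 0.31 for miR-222-3p. The cause of these shifts was not tested.

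The number of miRNAs at least 2-fold apart in HFD-EV against Chow-EV was 19 (11 higher and 8 lower), 31 without scaling (27 and 4) and 4 with normexp. For Chow-LKO EV against Chow-EV it was 31 (13 and 18), 36 without scaling (31 and 5), 5 with normexp and 47 with the detection call of Feature Extraction. For HFD-LKO EV against HFD-EV it was 66, and 15 with normexp. For HFD-LKO EV against Chow-LKO EV it was 21 (16 and 5), 23 without scaling (6 and 17), 2 with normexp and 33 with that detection call. At 1.5-fold the 4 counts were 133, 120, 163 and 106. The opposite arms were undetected under both detection calls. Relative to the median of all miRNAs, both strands were above it in 44 of 44 combinations of comparison and setting. The factor by which an array is scaled does not change these values, and the comparisons share arrays, so the 44 combinations are not independent. No paired analysis was possible because each group is 1 array with no replicate number.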
